A study of Mus musculus with 6 samples.

Results

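The aryl hydrocarbon receptor (AhR) and its target genes were examined in mouse colon with and without the gene Islr. The set held 9 genes, chosen by name: the receptor Ahr, its partner Arnt, the feedback inhibitors Ahrr and Tiparp, the cytochrome P450 genes Cyp1a1, Cyp1a2 and Cyp1b1, the tryptophan-degrading enzyme gene Ido1 and the aldehyde dehydrogenase gene Aldh3a1. They were 9 of the 23462 named genes on the array and were read by 11 probes. The choice was made with the difference between Islr knockout and control already known, in particular that of Cyp1a1, which also lies near Islr on its chromosome. The differences between the genotypes at these 9 genes are therefore given as a description, and no test supports them.

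The samples were colon of 6 male mice, 3 labelled control and 3 labelled Islr knockout, with 1 single-colour Agilent array per mouse. Both genotypes had, according to the sample source, drunk water with 3.5% dextran sulfate sodium (DSS) for 5 days and then recovered for 1 day. DSS is a polysaccharide that injures the colonic epithelium. A separate treatment field of the labels says that there was no treatment. The design text says that the tissue was flow separated but names no gate or cell type, and strain, age and the way the knockout was made were not given in the sources used here. Islr encodes a protein with leucine-rich repeats and an immunoglobulin-like domain, and the comparison asked how its loss changed expression in the colon.

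The AhR is a transcription factor that waits in the cytoplasm in a complex with the chaperone Hsp90 and the cochaperone p23 (Ptges3) until a ligand binds. Ligands include pollutants such as dioxins, plant indoles, and tryptophan products of the host and its bacteria. The loaded receptor enters the nucleus, pairs with Arnt and binds DNA at a short core, GCGTG, from which it switches on the Cyp1 genes. The Cyp1 enzymes break down many of its ligands, while Ahrr competes for Arnt and Tiparp marks the receptor with ADP-ribose, so that the response limits itself. In the gut the receptor acts in epithelial cells, where it restrains stem cell signalling, and in innate and T lymphocytes that make interleukin 22.

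Upstream sequences of 4 of the genes are shown because they carry the receptor's core motif differently. Cyp1a1 is the member with the widest spread between the arrays, Cyp1a2 is its neighbour, and Ahrr and Tiparp are the feedback genes. Each line is the 250 bases before the gene's start, 5′ to 3′ on the gene's own strand, from RefSeq on GRCm38.p6. Capitals mark GCGTG, or its reverse complement CACGC where the match lies on the other strand. The Cyp1a1 window is chr9:57697363-57697612 (plus strand), that of Cyp1a2 is chr9:57683656-57683905 (minus strand), that of Ahrr is chr13:74292332-74292581 (minus strand) and that of Tiparp is chr3:65528197-65528446 (plus strand).
Cyp1a1: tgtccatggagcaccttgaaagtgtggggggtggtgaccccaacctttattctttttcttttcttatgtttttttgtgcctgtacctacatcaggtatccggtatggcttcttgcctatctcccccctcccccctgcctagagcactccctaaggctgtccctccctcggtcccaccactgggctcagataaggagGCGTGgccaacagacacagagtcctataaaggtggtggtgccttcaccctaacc
Cyp1a2: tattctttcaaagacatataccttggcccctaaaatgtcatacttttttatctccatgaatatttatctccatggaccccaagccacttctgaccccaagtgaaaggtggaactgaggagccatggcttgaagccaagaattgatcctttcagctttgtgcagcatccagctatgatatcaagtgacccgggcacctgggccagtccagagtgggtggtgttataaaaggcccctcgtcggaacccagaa
Ahrr: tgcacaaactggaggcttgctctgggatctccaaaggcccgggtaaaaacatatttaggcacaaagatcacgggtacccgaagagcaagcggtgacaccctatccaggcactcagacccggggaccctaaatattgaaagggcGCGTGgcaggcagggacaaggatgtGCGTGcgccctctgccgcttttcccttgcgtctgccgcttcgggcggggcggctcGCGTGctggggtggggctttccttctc
Tiparp: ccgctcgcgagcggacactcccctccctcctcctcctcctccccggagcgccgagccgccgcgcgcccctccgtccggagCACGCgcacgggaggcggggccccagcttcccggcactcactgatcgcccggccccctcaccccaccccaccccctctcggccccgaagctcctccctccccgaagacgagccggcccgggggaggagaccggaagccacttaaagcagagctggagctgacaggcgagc

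The Cyp1a1 window holds 1 core, 54 bases before the start, and the Cyp1a2 window holds none. The well-studied enhancer of Cyp1a1, with its cluster of receptor sites, lies further upstream than this window. The Ahrr window holds 3 cores, the nearest at 27 and the next at 82 bases before the start. The Tiparp window holds 1, on the other strand, at 170 bases. Sequences were matched for 6 of the 9 members, and 5 of those 6 hold the core at least once, with Arnt at 29 bases and Cyp1b1, on the other strand, at 76. GCGTG was searched on both strands and overlapping matches were allowed. Its letters also make up the core of the hypoxia response element. Of all 32851 promoter windows of this length 28.2% hold it, and 2.77% hold 3 or more, as Ahrr does. A match describes the letters of the window and not a bound site.

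Signals are given as the deposited processed intensity and as log2 of it relative to the array's own 75th percentile, so that 0 is that percentile. That percentile lay between 6353 and 7110 in the controls and, lower, between 4910.5 and 5820.0 in the knockouts, in units of intensity. Of the spots 69.4% to 75.4% were well above background. The number of arrays limits the precision, and with 3 against 3 an exact permutation p cannot go below 0.1. Islr itself checked the labels: its log2 signal was 1.57, 1.24 and 1.21 in controls, the first from an outlier spot, and -1.40, -0.93 and -1.31 in knockouts. The difference was -2.44 (SE 0.21, limma adjusted p = 0.0171), and the adjusted p was 0.0580 without knockout replicate 3. All controls lay in slide row 1 and all knockouts in row 2, so the slide row and the genotype cannot be told apart. In RNA pooled from many cells, as here, fewer cells of a type and less RNA per cell cannot be told apart either.

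Cyp1a1, the P450 gene most closely followed as a readout of the receptor, was low in every control and higher in every knockout. Its probe (A_51_P279693) read 102, 24.3 and 129.6 in controls and 150.4, 354 and 1311 in knockouts as processed signal. On the log2 scale the controls were at -5.97, -8.19 and -5.66 and the knockouts at -5.03, -4.04 and -2.14. The groups did not overlap, but the lowest knockout lay close to the highest control, and knockout replicate 3 stood well above the other knockouts. The group means were -6.61 ± 1.38 and -3.74 ± 1.47 (SD, n = 3 each), a difference of 2.87 on the log2 scale (SE 0.91), or 7.31-fold, and of 1.58 with normexp background correction. The probe was well above background on 1 of 3 controls and on 3 of 3 knockouts, so it entered the tested set only through the knockouts and the control mean is poorly measured. Control replicate 2 had the lowest of the 6 values, and without it the difference was 2.08. From the lowest to the highest array the scaled signal spanned 66.4-fold, the widest range among the 11 probes. The low end, 24.3 on control replicate 2, was at background. A second Ahrr probe that was never above background also read 24.3 on that array. The span is therefore a ratio to background and not a measured range of Cyp1a1.

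Cyp1a2, the paralogue next to Cyp1a1, was measured on a single array. Its signal (A_52_P595871) was 27.3, 58.8 and 35.0 in controls and 90.4, 37.5 and 381 in knockouts, and only the last of these was well above background. That array was knockout replicate 3, the same one on which Cyp1a1 was highest. The groups overlapped and the probe was not tested. Cyp1a1 and Cyp1a2 are similar in sequence, and whether either probe also captures the other transcript was not tested.

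Cyp1b1, the third ligand-metabolising P450 of the family, was not well above background on any array. Its signal (A_51_P255456) was 93.5, 60.9 and 66.4 in controls and 26.6, 63.4 and 40.7 in knockouts. These values set only a limit of detection, and no direction is read from them.

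**Figure D1:**
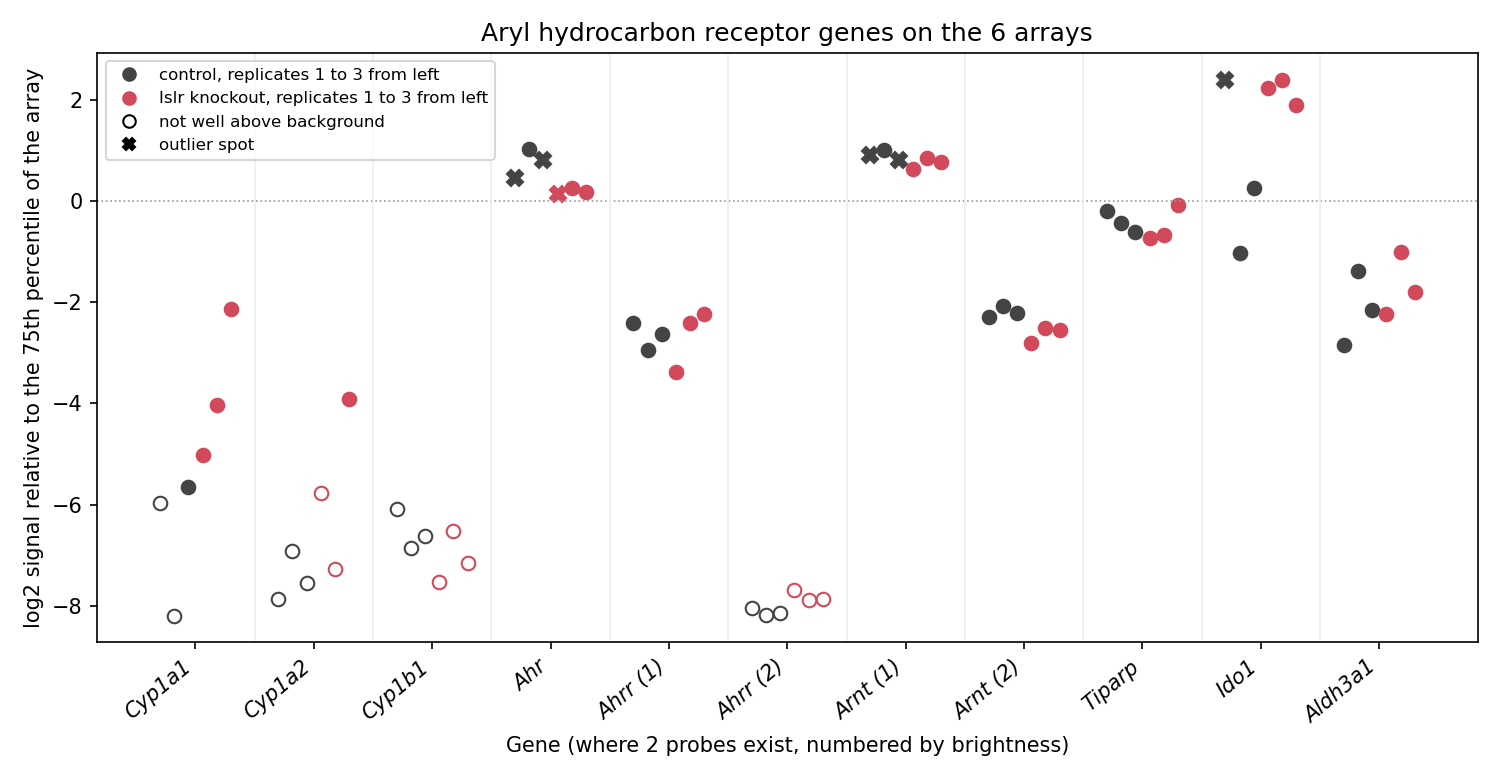
Log2 signal of each of the 11 probes of the 9 genes, relative to the array's 75th percentile, with 1 point per array, controls dark and Islr knockouts red. Open circles were not well above background and crosses are outlier spots; the Cyp1a1 knockouts run from -5.03 to -2.14, above all 3 controls, while the Ido1 value of control replicate 1 (2.39) lies among the knockouts.

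The receptor itself was lower in the knockouts, although few of its spots were usable. The Ahr signal (A_55_P2109613) was 8639, 14476 and 11517 in controls and 5356, 6968 and 6481 in knockouts, and all were well above background. On the log2 scale the values were 0.44, 1.03 and 0.82 against 0.12, 0.26 and 0.17, with no overlap and a tight group of knockouts. Outlier spots gave the control values 0.44 and 0.82 and the knockout value 0.12, so that 1 control value remained and the probe was not tested. With the outlier spots kept, the means were 0.76 ± 0.30 and 0.18 ± 0.07 (SD, n = 3 each), a difference of -0.58 and a 1.49-fold lower signal.

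Arnt, the obligate DNA-binding partner that the receptor shares with the hypoxia-inducible factors, was read by a bright and a dim probe that gave unequal differences. The dim probe (A_55_P2814820) read 1296, 1682 and 1411 in controls and 698, 1014 and 988 in knockouts. Its log2 values were -2.29, -2.08 and -2.21 against -2.82, -2.52 and -2.55, without overlap, and the difference was -0.43 (SE 0.16). The bright probe (A_55_P2100895) read 0.90, 1.00 and 0.80 against 0.62, 0.85 and 0.78 on the log2 scale. There the groups overlapped, the difference was -0.15 with outlier spots kept, and 2 of the 3 control spots were outliers, so that it was not tested.

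The feedback genes had small differences between the genotypes. Ahrr, the repressor that competes with the receptor for Arnt, read 1190, 920.0 and 1054 in controls and 473, 1094 and 1227 in knockouts (A_51_P254425). After scaling, knockout replicate 1 was the lowest of the 6 arrays and the other knockouts the highest, and the log2 difference was -0.01 (SE 0.33). Its second probe (A_55_P2128388), at 23.3 to 24.7 on all arrays, was never above background. Tiparp, the ADP-ribosyltransferase that is induced early by the receptor, read 5514, 5257 and 4285 in controls and 2969, 3662 and 5428 in knockouts (A_51_P514961). After scaling, knockout replicate 3 was the highest and the other knockouts the lowest of the 6 arrays, and the log2 difference was -0.08 (SE 0.22). At both genes the difference of the tested probe was smaller than its standard error, and its sign turned under several other settings. It turned to 0.04 at most for Tiparp and 0.34 for Ahrr when 1 array was left out. With array weights it was 0.09 for Tiparp and 0.42 for Ahrr.

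Ido1, whose product opens the kynurenine pathway and so makes receptor ligands from tryptophan, had the highest signals in the knockouts and in 1 control. The signal (A_51_P307150) was 33329, 3504 and 7823 in controls and 23136, 30538 and 21493 in knockouts. On the log2 scale these were 2.39, -1.02 and 0.26 against 2.24, 2.39 and 1.90. Control replicate 1 read like a knockout, but its spot was an outlier spot and was left out of the fit, which dropped to 2 controls. The means were then -0.38 ± 0.90 (SD, n = 2) and 2.17 ± 0.25 (SD, n = 3), a difference of 2.56 (SE 0.41), or 5.88-fold. With that spot kept, the control mean was 0.54 ± 1.72 (SD, n = 3), the groups overlapped and the difference was 1.63, or 3.10-fold. Ido1 was the 1 member past the 5% false discovery rate of limma, and it no longer passed with the outlier spot kept or when any 1 knockout was left out. Without control replicate 2 or 3 it had too few usable values for the fit.

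Aldh3a1, an aldehyde dehydrogenase gene of the classical receptor battery, overlapped between the genotypes. Its signal (A_55_P2101216) was 882, 2735 and 1465 in controls and 1037, 2904 and 1650 in knockouts. In both groups the second replicate was highest and the first lowest, which only names the animals, and the difference was 0.44 (SE 0.45).

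Of the 9 genes, 6 were tested, and 1 of these passed, where 3.97% of all 35351 tested probes and 3.81% of the 16451 tested named genes did so. As higher in the knockout, the direction of Ido1, 1.55% of the probes and 1.35% of the named genes passed, and as lower 2.42% and 2.46%. Of the 8 member probes that were well above background throughout at least 1 group, 3 did not overlap between the genotypes: Cyp1a1, Ahr and the dim probe of Arnt. Among all 40172 such probes 34.9% did not overlap. Nothing is read from these counts, because the members were chosen on this contrast.

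Because Cyp1a1 and Cyp1a2 lie near Islr on chromosome 9, the 15 protein-coding genes on each side of Islr were read in the same way. Cyp1a1 is the ninth and Cyp1a2 the tenth gene away on one side. Of the 30 neighbours, 23 were tested, 10 were higher and 13 lower in the knockout, the median difference was -0.02 on the log2 scale, and the range was -1.53 to 2.87, with Cyp1a1 at the top. Among all named genes the median difference was 0.01. Between Islr and Cyp1a1, the difference was 0.12 (SE 0.31) at Stra6, a retinol transporter gene, -0.04 (SE 0.44) at Ccdc33, and 0.08 (SE 0.16) at Edc3, an mRNA decapping gene next to Cyp1a1. Cyp11a1, the steroid-producing P450 gene that is the third gene on that side, was not tested and was not well above background on any array.

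On the other side the nearest genes were Islr2, a paralogue of Islr, with a difference of -0.63 (SE 0.44), Pml, the nuclear body gene, with 0.47 (SE 0.24), and Stoml1 with -0.38 (SE 0.20). None of these 3 passed the test. Of the 23 tested neighbours 1 passed, where 3.81% of all tested named genes did. It was Loxl1, an elastin cross-linking enzyme, which fell by 1.53 on the log2 scale (SE 0.29, limma adjusted p = 0.0437). Its adjusted p went to between 0.0506 and 0.126 without any of 5 of the 6 arrays, so the call rests on nearly every array. The 6 tested genes between Islr and Cyp1a1 had differences of -0.22 (Ubl7) to 0.31 (Clk3), against 2.87 at Cyp1a1 itself. Sema7a, a semaphorin gene in the same interval, was not tested because of 3 outlier spots. With those kept it read 0.82, 1.02 and 0.70 in controls against -1.38, 0.00 and -0.30, a difference of -1.40 without overlap, so the interval holds a gene that was lower in all knockouts. Ubl7, Clk3, Edc3 and Sema7a were named after their values were seen.

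**Figure D2:**
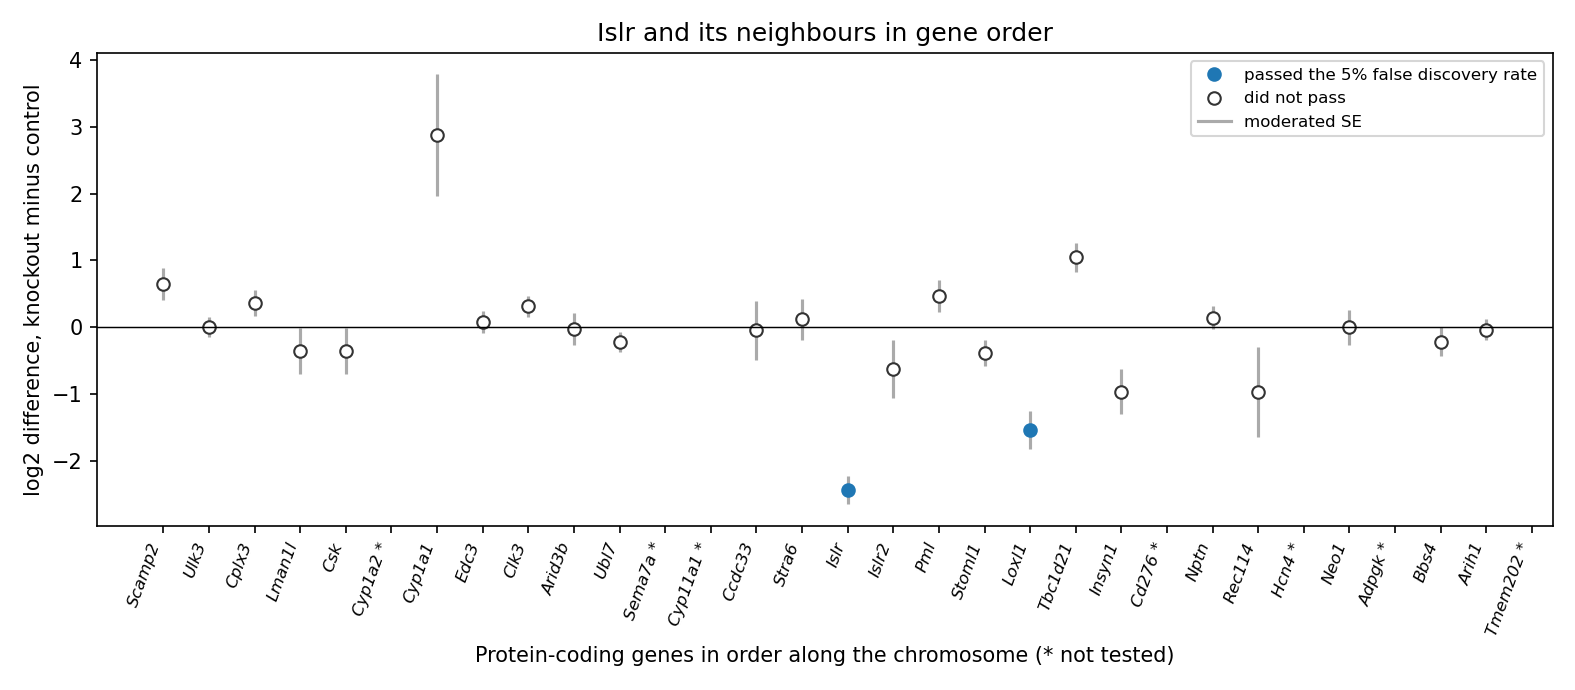
Log2 difference, knockout minus control, of Islr and of the 15 protein-coding genes on each side in chromosome order, with bars of the moderated standard error. Filled points passed the 5% false discovery rate of limma, which were Islr (-2.44) and Loxl1 (-1.53); Cyp1a1 is at 2.87, and genes with an asterisk, its neighbour Cyp1a2 among them, were not tested and have no point.

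The chaperones and co-regulators that hold and assist the receptor hardly differed between the genotypes. Of 15 such genes on the array 12 were tested, 6 were higher and 6 lower, the median difference was 0.00, and 0 passed (limma, with 0 at an unadjusted p under 0.05). Of all tested named genes 28.2% reached an unadjusted p under 0.05, the share against which such counts of each list are to be read. The split and the sign of that median changed with the scaling, to 2 higher and 10 lower and a median of -0.11 after quantile normalization. Cul4b, the scaffold of a ubiquitin ligase that works with the receptor, differed by -0.43 and the nuclear export factor Xpo1 by -0.27.

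Further reported targets of the receptor differed in both directions. Of 22 genes listed, 20 were on the array and 18 tested, 10 higher and 8 lower, with a median of 0.27, and 2 passed, against 3.81% of all named genes. The median was 0.09 with outlier spots kept, 0.43 with normexp, and 0.44, 0.15 and 0.61 when knockout replicate 1, 2 or 3 was left out. Rnf43, a ubiquitin ligase gene through which the receptor restrains Wnt signalling, was -1.45, -2.56 and -1.95 in controls and 0.53, -0.30 and 0.14 in knockouts, on the log2 scale. The groups were well apart and Rnf43 rose by 2.11 (SE 0.34, 4.32-fold, limma adjusted p = 0.0349). It did not pass when control replicate 2 or 3 was left out (adjusted p = 0.0845 and 0.0914) or knockout replicate 1 or 3 (0.0771 and 0.0887). Without the filter on dim probes Rnf43 did not pass either (limma adjusted p = 0.0540). Znrf3, another gene of this list, named after its values were seen, differed by -0.21 (SE 0.30) and did not pass.

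Scin, which encodes an actin-severing protein and is a known target of the receptor, showed the same order of controls as Ido1. It read 1.29, -3.24 and -2.29 in controls and 1.25, -0.15 and 0.56 in knockouts, with an outlier spot behind the first value of each group. Scin rose by 2.97 (SE 0.43, adjusted p = 0.0445) with those spots left out, over 2 controls and 2 knockouts. With them kept the difference was 1.97 and did not pass (adjusted p = 0.302), and without knockout replicate 1 it did not pass either (adjusted p = 0.0694). Nor did it pass without the filter on dim probes (limma adjusted p = 0.0714). Without replicate 2 or 3 of either group Scin had too few usable values for the fit. Control replicate 1 read as high as knockout replicate 1 at this gene, as it did at Ido1. These arrays had the most outlier spots, 13.6% on control replicate 1 and 16.0% on knockout replicate 1, against 3.26% to 9.05% on the others.

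The other target genes with differences of the greatest size did not pass in the main setting. Gsta2, a glutathione transferase gene with close paralogues, read -0.07, -7.00 and -2.46 against 0.59, -1.55 and 0.17, a difference of 2.91 (SE 1.66). It was well above background on 2 of 3 controls, and control replicate 2 lay far below the other arrays. Il10, the anti-inflammatory cytokine, differed by -2.06 (SE 0.48, limma adjusted p = 0.0634), and it was well above background on 3 of 3 controls but 1 of 3 knockouts. Il10 passed with median centring and with array weights, and Gsta2 with array weights alone. Cdx2, the intestinal identity factor reported as a receptor target, read 1.01, -3.10 and -0.26 against 0.88, 1.46 and 0.40, a difference of 1.69 (SE 0.98). At Gsta2 and Cdx2 control replicate 1 lay among the knockouts. The following 3 were picked after their values were seen. Entpd1, which encodes an ectonucleotidase of regulatory immune cells, read -0.69, -0.27 and -0.46 against -2.61, -1.74 and -1.52, without overlap. Its difference of -1.48 (SE 0.30, adjusted p = 0.0507) missed the threshold. Entpd1 passed with normexp, quantile normalization, median centring, outlier spots kept, the series' value table and array weights. Without the filter on dim probes, or with any single array left out, it did not pass. Nqo1, the quinone reductase of the receptor battery, differed by -0.42 (SE 0.18, adjusted p = 0.194). Il22, the barrier cytokine, read -2.90, 0.66 and 0.26 against -2.83, -1.61 and -0.44, a difference of -0.97 (SE 1.03) with overlapping groups.

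Genes that handle tryptophan and indoles, and so set the supply of ligands, were also mixed. Of 18 on the array 16 were tested, 9 higher and 7 lower, with a median of 0.21 and 1 that passed, against 3.81% of all named genes. The median was 0.06 without the filter on dim probes, 0.10 or 0.08 when control replicate 2 or 3 was left out, and 0.09 or 0.13 for knockout replicate 1 or 3. The gene that passed was Kyat1, whose enzyme turns kynurenine into kynurenic acid. It read -2.05, -2.42 and -2.04 in controls and -0.10, -1.12 and -0.76 in knockouts, and rose by 1.51 (SE 0.28, 2.85-fold, limma adjusted p = 0.0441). The adjusted p went to between 0.0527 and 0.127 without any 1 array other than knockout replicate 2. Maoa, the monoamine oxidase, differed by 1.92 (SE 0.42, adjusted p = 0.0559), Ddc, which makes tryptamine, by 1.64 (SE 0.56, adjusted p = 0.124), and Slc16a10, an aromatic amino acid transporter, by -1.18 (SE 0.31, adjusted p = 0.0744). None of these 3 passed in the main setting. With array weights, where 43 of 128 list genes passed, all did. Maoa also passed with normexp, and Maoa and Ddc without control replicate 1.

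Genes of the lymphoid cells that depend on the receptor were listed together with the interleukin 22 receptor genes Il22ra1 and Il22ra2, and few were measured. The counts and the median are therefore not of lymphoid genes alone. Of 14 listed, 13 were on the array and 7 tested, 6 higher and 1 lower, with a median of 0.17. By their brightest tested probe 0 passed (2 at an unadjusted p under 0.05). That median ran from 0.07 to 0.36 when 1 array was left out, lowest without knockout replicate 2 and highest without control replicate 2; it was also over 1.5 times greater without control replicate 3 or knockout replicate 3. Il22ra2, which encodes the soluble decoy of interleukin 22, differed by 1.41 (SE 0.87) and Il22ra1, a subunit of its epithelial receptor, by 0.79 (SE 0.24). Neither passed in the main setting, and Il22ra1 passed with array weights.

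Interferon-response genes were read because interferon gamma is the best known inducer of Ido1. Of 19 on the array 17 were tested, 15 higher and 2 lower, with a median of 0.39, and 0 passed (7 at an unadjusted p under 0.05). The median was 0.58 with outlier spots kept and 0.24 with array weights. Their mean log2 signal, with outlier spots kept, was 0.77, 0.80 and 0.64 in controls and 1.62, 1.06 and 1.03 in knockouts. All knockouts were above all controls in that mean, with knockout replicate 1 highest, and control replicate 1 was not raised as it was at Ido1. The differences of greatest size were 0.86 (SE 0.20) at Gbp2, a guanylate-binding protein gene, 0.85 (SE 0.23) at the transcription factor gene Irf1, and 0.78 (SE 0.21) at the immunoproteasome gene Psmb9. The part of these genes in the Ido1 difference was not tested.

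**Figure D3:**
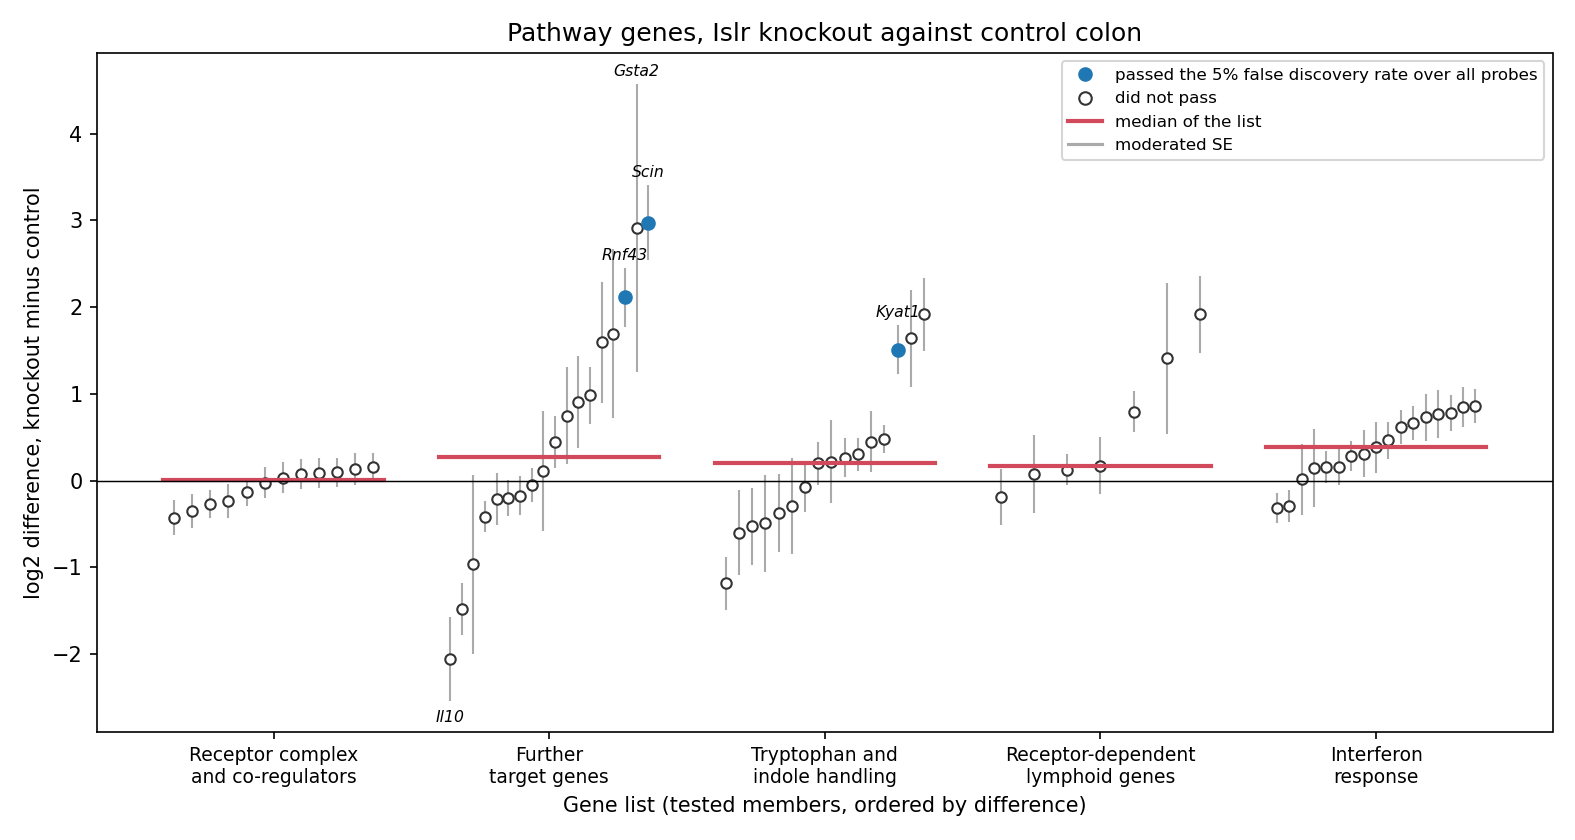
Log2 difference, knockout minus control, of each tested gene of 5 lists around the receptor, with bars of the moderated standard error and a red line at each list's median. Filled points passed the 5% false discovery rate of limma over all probes, which were Rnf43 (2.11), Scin (2.97) and Kyat1 (1.51); the medians run from 0.00 for the receptor complex to 0.39 for the interferon response.

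Markers of cell types differed along with these genes. Of 15 epithelial markers 11 were tested, and all 11 were higher in the knockouts, by 0.65 to 3.69 with a median of 1.16, though 0 passed (2 at an unadjusted p under 0.05). The median was 0.52 without control replicate 2 and 1.89 with array weights. The mean log2 signal of the epithelial markers was 2.62, 0.29 and 1.84 in controls and 3.21, 2.89 and 2.79 in knockouts. Control replicate 1 lay near the knockouts and control replicate 2 far below, the same order as at Ido1, Scin, Gsta2 and Cdx2, and Cdx2 is itself one of these markers. The difference was greatest at Slc26a3, the chloride exchanger of surface colonocytes, at 3.69 (SE 0.98, adjusted p = 0.0883), and at Car4, the carbonic anhydrase of the same cells, it was 1.59 (SE 0.46). The part of epithelial content in the Ido1, Scin and Cyp1a1 differences was not tested.

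Markers of other cells were lower. All 8 tested of 10 stromal markers were lower, with a median of -0.52, which was -0.34, -0.81 and -0.79 when knockout replicate 1, 2 or 3 was left out and -0.30 with array weights. Of these 1 passed, where 2.46% of all tested named genes passed as lower. It was Pdgfrb, the pericyte and fibroblast receptor, which fell by 1.17 (SE 0.20, adjusted p = 0.0395). Its adjusted p was 0.0504 to 0.111 when any single array was left out. All 9 tested of 10 endothelial markers were lower, with a median of -1.17 (-0.72 without knockout replicate 1), and 0 passed (8 at an unadjusted p under 0.05). With array weights 1 marker of each of these 2 lists was higher. Of 10 tested of 12 myeloid markers 7 were lower, with a median of -0.63 (-0.39 without control replicate 2, -0.41 with outlier spots kept). Of these markers 2 passed, both as lower, again beside 2.46% of all tested named genes. They were S100a8 and S100a9, which encode the calprotectin of neutrophils, with differences of -3.92 (SE 0.53, adjusted p = 0.0327) and -3.73 (SE 0.46, adjusted p = 0.0245). Without knockout replicate 3 neither passed, and S100a9 did not pass without control replicate 2 or 3 either. S100a8 had 2 usable controls, since its spot on control replicate 1 was an outlier spot. Without control replicate 2 or 3 it had too few usable values for the fit. S100a8 also did not pass without the filter on dim probes (limma adjusted p = 0.0524). Other neutrophil-linked genes of the list, named after their values were seen, did not go the same way: the receptor gene Csf3r differed by 0.17 (SE 0.14) and the integrin gene Itgam by 0.27 (SE 0.18). Ly6g, not tested because of 3 outlier spots, read 2.50, 1.69 and 2.43 in controls against 3.08, 2.82 and 3.06.

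The per-array means of these lists separated the genotypes. The stromal mean was 1.65, 1.48 and 1.66 in controls and 0.73, 1.22 and 1.21 in knockouts. For endothelium the mean was 0.35, 0.46 and 0.27 against -1.61, -0.27 and -0.43, and the myeloid mean was 1.70, 1.49 and 1.37 against 0.05, 0.56 and 0.56. Knockout replicate 1 was the lowest array in all 3 lists. Ahr, which was lower in the knockouts, is known to be expressed in stromal, endothelial and immune cells as well as in epithelium, and the part of these lists in the Ahr and Cyp1a1 differences was not tested. Lymphoid markers did not follow the genotype, with 3 of 8 tested higher, 5 lower and 0 that passed (0 at an unadjusted p under 0.05). Their median was -0.26, but 0.02 without control replicate 2, 0.05 without knockout replicate 3, -0.46 without control replicate 1 and -0.45 with array weights.

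Tissue from outside the colon wall was checked with markers of squamous anorectal epithelium and of liver, a tissue in which Cyp1a2 is abundant. Of 8 tested squamous markers 5 were higher and 3 lower, with a median of 0.30 (0.20 without knockout replicate 1). Of these 0 passed (3 at an unadjusted p under 0.05). Dsg3 was not tested and was never well above background. Krt6a, also untested and named after its values were seen, read -7.96, -7.02 and -5.78 in controls against -7.50, -6.01 and -3.51. It was well above background on 0 of 3 controls and 1 of 3 knockouts. The mean of the squamous list was -2.78, -2.58 and -2.42 in controls and -2.57, -2.44 and -1.98 in knockouts, highest in knockout replicate 3, the array on which Cyp1a1 and Cyp1a2 were highest. Krt14, the basal keratin of squamous epithelium, read -3.24, -2.93 and -3.10 against -1.81, -2.67 and -1.09, a difference of 1.23 (SE 0.38, adjusted p = 0.105). Krt13, a keratin of the upper layers, differed by 0.88 (SE 0.78), but Sbsn by -0.71 (SE 0.24) and Krt5, the basal partner of Krt14, named after its values were seen, by -0.35 (SE 0.60), and none passed. The liver list had 4 of 7 tested higher and 3 lower, 0 passed (2 at an unadjusted p under 0.05), and its mean on knockout replicate 3 was -3.01, within the control range of -3.04 to -2.01. The part of squamous tissue in the Cyp1a1 values was not tested.

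**Figure D4:**
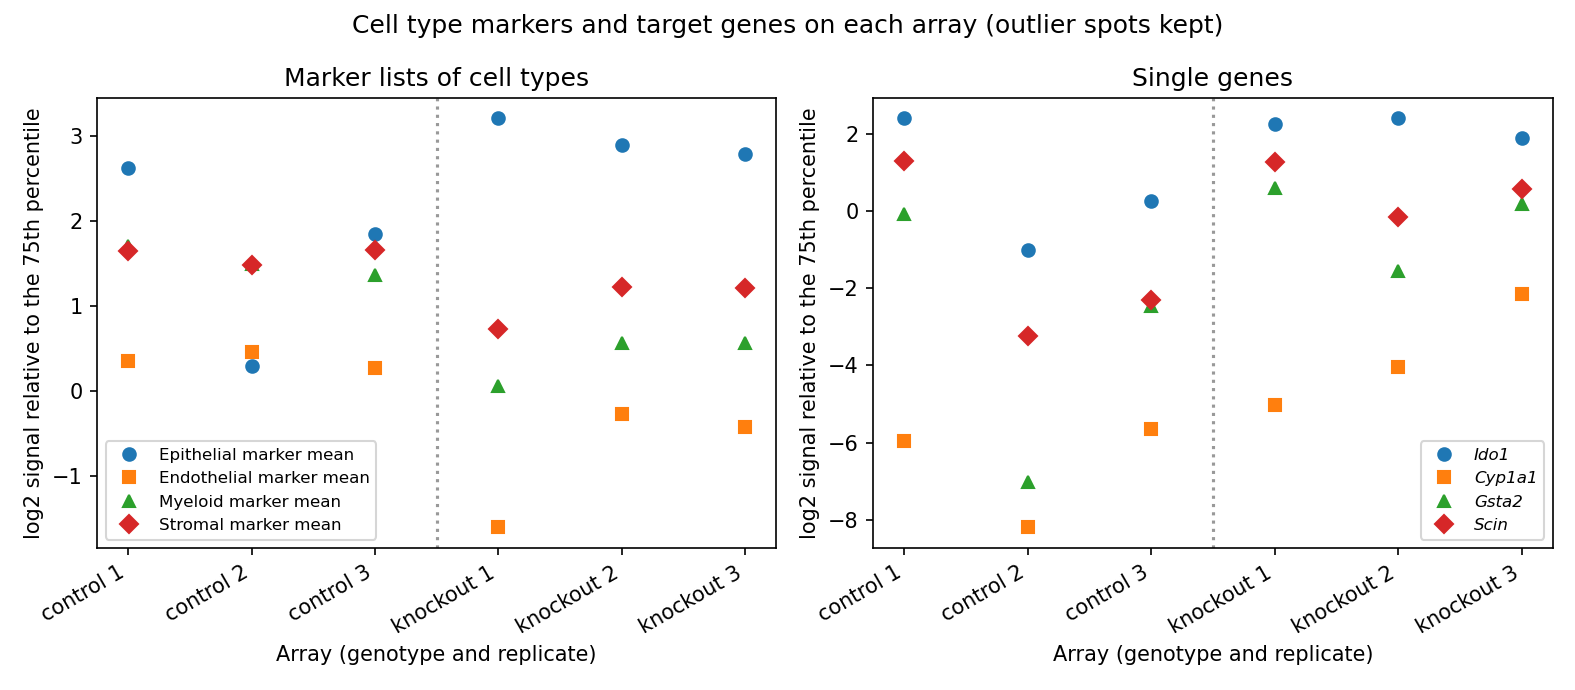
Mean log2 signal of 4 marker lists (left) and log2 signal of Ido1, Cyp1a1, Gsta2 and Scin (right) on each of the 6 arrays, relative to the array's 75th percentile, with outlier spots kept and a dotted line between controls and knockouts. Control replicate 2 is lowest at the epithelial mean (0.29) and at all 4 single genes, while control replicate 1 reads 2.39 at Ido1 and 1.29 at Scin, within or above the knockouts.

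The genes whose pattern over the 6 arrays was most like that of Cyp1a1 were listed as a description. Among 14430 genes measured on all arrays, the highest Pearson r was 0.988 at Scgb1b19, a secretoglobin gene, followed by 0.987 at 2310069B03Rik, 0.985 at Lpar1, a lysophosphatidic acid receptor gene, 0.983 at Adgrf1, an adhesion receptor gene, and 0.983 at Dcun1d3, a gene of the neddylation machinery. The 6 points share the slide, the scaling and the genotype groups, and the order of such high values means little over so few points. The differences of these genes between the genotypes were unequal, at 0.50 (SE 0.21) for Scgb1b19, 2.56 (SE 0.67) for 2310069B03Rik, 0.75 (SE 0.26) for Lpar1, 1.48 (SE 0.58) for Adgrf1 and 0.09 (SE 0.13) for Dcun1d3, and none passed. No other member or listed target was among the 5.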

How the data were processed

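The labels give 1 genotype, control or Islr knockout, for each of the 6 mouse colon samples; replicate numbers follow accession order and pair nothing. RNA was amplified and labelled with Cy3, per the labels' protocols, although the files hold the red channel alone. Feature Extraction 11.5.1.1 was used, per the file headers (10.7 in the submitters' processing notes). The deposited processed signal is an intensity, background-subtracted and detrended by the authors' scanner software and not scaled between arrays, per the file headers.

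Signals were converted to log2 minus the 75th percentile of each array. Outlier spots (3.26% to 16.0% of an array) were treated as missing unless said to be kept. A probe was tested if well above background on all 3 arrays of a group, with at least 2 usable values per group: 35351 of 56605 probes. limma 3.58.1 in R 4.3.3 (lmFit, eBayes, two-sided) gave moderated standard errors and p-values, Benjamini-Hochberg adjusted over all tested probes at 5%. The procedure was tested on simulated data with independent noise at each probe, which holds no effects of whole arrays. The p-values measure the spread between these 6 samples. RefSeq accessions named 33767 probes (59.7%) through GRCm38.p6. The files use an earlier build, so neighbours are given by order alone. The brightest of the probes tested in a setting stood for a gene. For Arnt this was the dim probe, but the bright probe with outlier spots kept.

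The members and lists were chosen with earlier results of these data known. Named were all members, Islr, list genes past the threshold plus the 3 of greatest difference otherwise, neighbours past the threshold plus the 3 nearest on each side, and the 5 genes most like Cyp1a1; exceptions are marked or serve as examples, and some named by the rule are not reported here. Alternatives were normexp (offset 50), quantile normalization, median centring, outlier spots kept, no filter on dim probes, array weights, the series' value table, the median over a gene's probes, and leaving out each array.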

Additional observations from a re-analysis of the deposited data

How the results depend on the processing

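No paired analysis was possible because the labels carry no replicate numbers and those used here follow accession order. Of all 35351 tested probes 1403 passed, 39.1% of them higher. The count was 2558 (51.1% higher) with normexp, 2185 with quantile normalization, 2249 with median centring, 484 without the filter on dim probes, 9292 (49.4% higher) with array weights, and 40 to 2114 with 1 array left out, lowest without knockout replicate 3. Of the receptor genes and targets 1 passed, Ido1. The count was 0 with outlier spots kept (limma, 2 of 7 at an unadjusted p under 0.05), 0 without the filter (3 of 8 at an unadjusted p under 0.05), 3 with array weights (Arnt, Cyp1a1 and Ido1) and 0 to 1 with 1 array left out, Ido1 passing only without control replicate 1. The Cyp1a1 difference kept its sign throughout, from 1.58 with normexp to 4.33 with array weights, and passed only with array weights. Ahrr turned to 0.016 with normexp, 0.037 with quantile normalization, 0.022 with median centring, 0.020 with the series' value table and 0.42 with array weights, and ran from -0.23 to 0.34 with 1 array left out; it was 0.12 and 0.0092 when control replicate 1 or 3 was left out, and 0.34 for knockout replicate 1. Tiparp turned to 0.089 with array weights and ran from -0.28 to 0.04 with 1 array left out, at 0.029 without control replicate 1 and, for knockout replicates 1 and 2, 0.038 and 0.0092. Of 128 tested list genes 6 passed, where 3.81% of all tested named genes did. The count was 10 with normexp, 10 with median centring, 1 without the filter, 43 with array weights and 0 to 8 with 1 array left out. Of the neighbours of Islr 1 passed, against 2 (Loxl1 and Tbc1d21) with normexp, quantile normalization, median centring, outlier spots kept or the series' value table, 0 without the filter (limma, 5 at an unadjusted p under 0.05), 6 with array weights and 0 to 1 with 1 array left out. The causes were not tested. Signals near background limit Cyp1a1 in controls and all of Cyp1a2, Cyp1b1 and the second Ahrr probe.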
